A study of Mus musculus with 10 samples.

Results

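The genes Hes1, Hes6, Hey1, Hey2 and Heyl encode transcription factors of the basic helix-loop-helix class and were examined for accessible chromatin in muscle stem cells of young and aged mice. Accessible regions were assigned to a gene when their strongest summit lay within 50 kb of its span in the GRCm38 (mm10) genome. By that rule the 5 genes held 72 of 131656 regions in the list from young cells and 84 of 117284 regions in the list from aged cells. Open DNA was mapped by ATAC-seq, an assay based on insertions of a transposase, in C57BL/6 muscle stem cells. The cells carried α7-integrin and CD34 on their surface, by which they were sorted, and were kept in culture medium for 2 h with prostaglandin E2 (PGE2) or its vehicle (0.1% DMSO). There were 2 libraries for each treatment from young mice and 3 for each from aged mice, which were 8 to 20 weeks and 20 to 25 months old, and no genetic modification is named. The values used here were 1 list of regions per age, both after PGE2. Vehicle values were not analysed here, so an effect of age without PGE2 cannot be told apart from one in the response to PGE2. With a single list per age and no value per library, differences between the ages carry no replicate error and no p-value, and intervals cover counting error over regions only.

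Notch signalling passes from a ligand on one cell to a receptor on its neighbour, whose cleaved intracellular part enters the nucleus and joins the DNA-binding protein Rbpj to switch genes on. Hes1, Hey1, Hey2 and Heyl are direct targets of that complex in many tissues and encode repressors that bind DNA with a helix-loop-helix partner and recruit co-repressors. Hes6 is the odd member, since its product antagonises Hes1 and favours differentiation. In muscle stem cells Notch activity keeps the cells dormant and undifferentiated, Hey1 and Heyl are required together to maintain the pool, and Hes1 restrains the commitment factor MyoD.

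The promoters of Hey2 and Hes6 lay under strong regions of both lists. Their sequences are shown here because the reference held promoter windows for these genes and not for Hes1, Hey1 and Heyl. RefSeq windows of GRCm38.p6, running from 250 bases before to 50 bases after an annotated start site, were matched for 2 of the 5 genes (Hey2 with 1 window, Hes6 with 2). Each is printed 5′ to 3′ on the strand of the gene from 250 bases before the start site to the 10th base from it. In Hey2 and in the relative Hes5, which is shown for comparison, capitals mark the Rbpj core TGGGAA on either strand. In Hes6, which had no such match, capitals mark the E box CANNTG, the general site of helix-loop-helix proteins, and the TATA box TATAAA.
Hey2, chr10:30842774-30843033, minus strand: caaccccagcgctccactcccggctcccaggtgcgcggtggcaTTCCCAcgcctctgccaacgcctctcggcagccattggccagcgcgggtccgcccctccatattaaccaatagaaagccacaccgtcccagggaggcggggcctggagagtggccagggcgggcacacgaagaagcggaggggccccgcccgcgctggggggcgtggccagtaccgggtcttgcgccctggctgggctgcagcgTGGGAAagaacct
Hes6 inner start, chr1:91413213-91413472, minus strand: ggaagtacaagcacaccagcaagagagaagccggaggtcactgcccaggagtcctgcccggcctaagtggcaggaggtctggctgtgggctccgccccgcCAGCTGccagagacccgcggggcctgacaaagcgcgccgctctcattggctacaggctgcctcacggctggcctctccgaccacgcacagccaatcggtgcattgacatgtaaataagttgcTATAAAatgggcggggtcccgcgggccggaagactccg
Hes6 outer start, chr1:91414029-91414288, minus strand: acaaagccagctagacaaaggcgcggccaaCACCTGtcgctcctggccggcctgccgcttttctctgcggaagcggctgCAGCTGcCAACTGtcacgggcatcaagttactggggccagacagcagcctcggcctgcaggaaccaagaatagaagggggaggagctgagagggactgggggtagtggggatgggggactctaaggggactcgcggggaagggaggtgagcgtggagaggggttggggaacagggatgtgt
Hes5, chr4:154960673-154960932, plus strand: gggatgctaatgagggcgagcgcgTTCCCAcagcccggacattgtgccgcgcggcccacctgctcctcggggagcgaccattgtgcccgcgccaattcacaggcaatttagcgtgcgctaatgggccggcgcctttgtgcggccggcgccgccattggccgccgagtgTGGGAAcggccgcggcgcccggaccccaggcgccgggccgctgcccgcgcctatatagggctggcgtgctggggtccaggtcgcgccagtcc

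The Hey2 window held the Rbpj core at 2 places, beginning 207 and 3 bases before the start site, the first on the other strand. Of all 32851 RefSeq promoter windows of the same length, 25.6% held the core on either strand and 3.79% held it at 2 or more places. The Hes5 window also held it at 2 places, beginning 226 and 82 bases before the start site. Neither Hes6 window held it. The E box occurred at 1 place in Hey2, 223 bases before the start, at 1 place in the inner Hes6 window, 150 bases before the start, and at 3 places in the outer one, against 72.3% of all windows with at least 1. The inner Hes6 window also held a TATA box 28 bases before the start site (13.6% of all windows). The N box CACNAG, a site of Hes proteins, was found at 2 places in the inner Hes6 window and in neither of the other windows of these genes (42.5% of all windows). The class C or E box of Hes and Hey proteins was searched as CACGNG. With T as its variable base it is also an E box, and with A an N box. It occurred at 1 place, in the outer Hes6 window, as CACGGG, which is neither of these (27.5% of all windows held CACGNG). No window of Hey2 or Hes6 held the cAMP response element TGACGTCA (1.79% of all windows), its core TGACG (20.8%), which the full element contains, or the AP-1 site TGANTCA (7.81%). A match is a description of letters, and no match says only that these letters are not in this window. The Hey2 window was rich in G and C (72.0%), above 93.1% of all windows.

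The strongest summits of the 2 lists lay within 8 bp of each other at these promoters. In Hey2 the strongest summit lay 166 bp before the start site in the young and 158 bp before it in the aged list, between the 2 Rbpj cores. In Hes6 it lay 103 bp and 97 bp before the inner start site, inside the inner window, and 713 bp and 719 bp past the outer one. One region covered each of these windows whole in each list.

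All 5 genes had an accessible region at a gene end in both lists. A gene end counts as open when a region comes within 1 kb of either end of the RefSeq span. Of 21887 protein-coding genes, 63.3% were open in both lists and 33.0% in neither, while 3.20% were open for young cells alone and 0.480% for aged cells alone. Strength is given as the fold of the summit over background, which is the authors' own value from their peak caller, and as the percentile of the region among all regions of the same list by the caller's −log10 q. Folds are not compared between the lists. All 5 genes had a gene-end region in the top 10% of both lists, which 33.2% of all genes had. These gene-end regions also give all 5 a region of the top 10% within 50 kb in both lists, so that count adds nothing further. Of all genes, 62.0% had one.

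**Figure D1:**
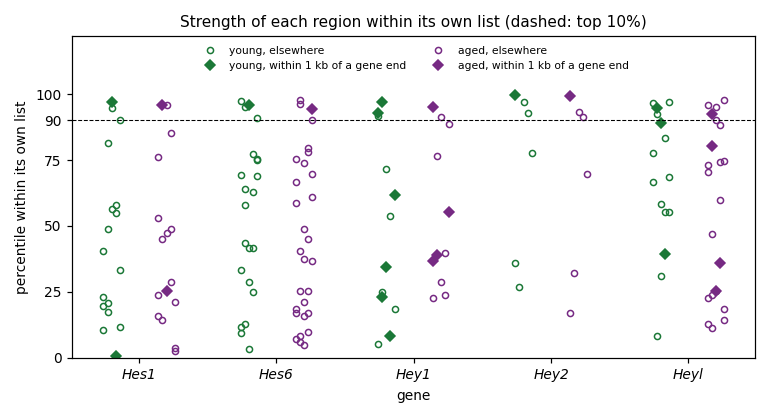
Percentile of each region within its own list (vertical axis, by −log10 q) for the 5 genes (horizontal axis), young in green and aged in purple. Diamonds are regions within 1 kb of a gene end, circles are all others, and the dashed line marks the top 10%. Each gene has at least 1 diamond above the line in both lists, and Hey2 has the highest, at percentiles 99.6 and 99.4.

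Hey2, known above all for its work in the heart and in arteries, had the strongest gene-end region of the 5. The gene (GeneID 15214) spans bases 30832359 to 30842783 of chromosome 10. Its region at the higher-numbered end, which holds the start site, reached 155-fold in the young list, 469th of all regions there, and 90.4-fold in the aged list, 730th there. Of the genes with an open end, 3.38% had a higher fold in the young and 5.08% in the aged list. The region ran from 30841968 to 30844741 in the young and from 30842026 to 30844709 in the aged list, so that 96.8% of each was shared at the least. It held 7 summits in the young and 8 in the aged list. No region came within 1 kb of the other end.

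Hey2 also had the fewest regions of the 5, with 6 within 50 kb in each list. Of all genes, 63.4% had more in the young and 56.8% in the aged list. The next strongest region of both lists lay 29.5 kb from Hey2 on the lower-numbered side (76.7-fold young, 35.6-fold aged), inside the span of Ncoa7, which encodes a nuclear receptor coactivator. A further one lay 21.3 kb from the span, outside any coding gene, with a fold of 45.2 in the young and 30.6 in the aged list. Its strongest summits were 1 bp apart. A compact site 7.11 kb from the span, 287 bp wide in the young and 245 bp in the aged list, reached 13.6-fold and 8.03-fold. The single young-only region near Hey2 lay inside Ncoa7 at 2.99-fold, and no aged-only region was found.

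Hes1, whose product cycles in dividing progenitors by repressing its own gene, lay under a single broad region in each list, which reached over most of the gene. Hes1 (GeneID 15205) spans 30065357 to 30067796 of chromosome 16, a length of 2440 bp. The broad region was 5054 bp wide in the young (30062488 to 30067541) and 4880 bp in the aged list (30062605 to 30067484), wider than 99.8% and 99.9% of the regions of those lists. It reached 75.9-fold in the young and 46.7-fold in the aged list, at percentiles 97.0 and 95.8. Its strongest summit was not at the gene but 1230 bp outside the lower-numbered end in the young and 1218 bp outside in the aged list. Both lists had a further summit, at the same base, close outside that end, with 61.1-fold in the young and 45.2-fold in the aged list. Inside the gene the summits were lower, from 9.20-fold to 19.1-fold in the young and from 3.41-fold to 12.2-fold in the aged list.

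Distant sites on both sides of Hes1 were also found at both ages. A compact region with 1 summit lay 40.4 kb from the span on the lower-numbered side in the young list (30024469 to 30025390) and 40.3 kb in the aged list (30024558 to 30025341). It lies inside the span of the long non-coding RNA gene 9030404E10Rik, with Hes1 the nearest coding gene. Its fold was 56.1 in the young and 46.7 in the aged list, where it had the same fold as the broad region over the gene itself. On the other side, 2.74 kb beyond the span, a region had 33.9-fold in the young and 19.0-fold in the aged list, at percentiles 90.2 and 85.4. For every region near Hes1, 17 in the young and 16 in the aged list, no other coding gene was nearer. Its 4 young-only regions had folds of 2.33 to 2.73 and its 2 aged-only regions folds of 2.02 and 2.40.

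**Figure D2:**
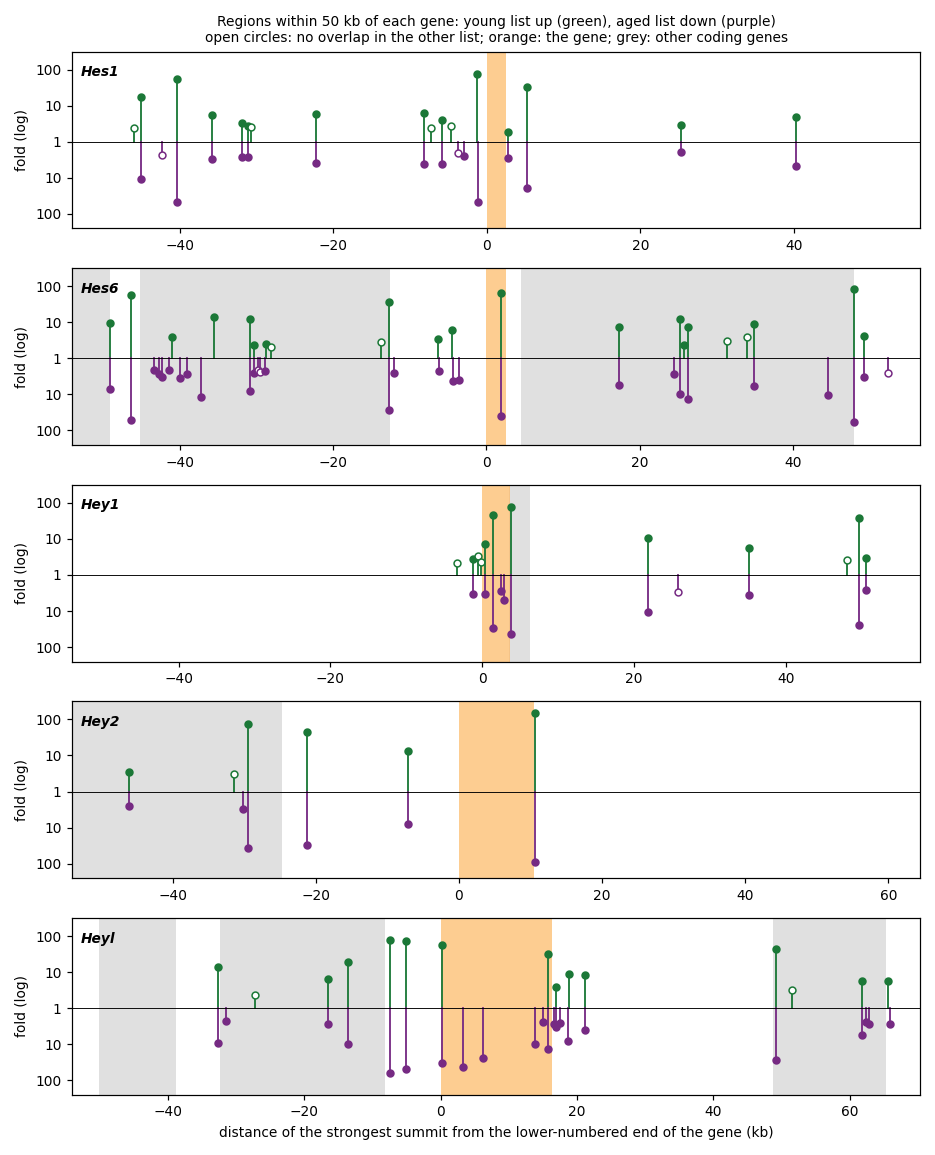
Every region within 50 kb of the 5 genes, placed by the distance of its strongest summit from the lower-numbered end of the gene (horizontal axis, kb) and by its fold over background (vertical axis, log scale), with the young list upward in green and the aged list downward in purple. Open circles had no overlap in the other list, and they are short in every panel, at or below 3.96-fold in the young and 2.93-fold in the aged list. Orange marks the gene and grey other coding genes.

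Hey1 had several regions across the gene in both lists. Hey1 (GeneID 15213) spans 8663359 to 8667038 of chromosome 3, and a predicted coding gene, LOC115489673, overlaps its higher-numbered end. The region there had 76.3-fold in the young list (8666143 to 8668697) and 42.9-fold in the aged list (8666458 to 8668704), at percentiles 97.0 and 95.04. Its strongest summit lay 168 bp outside the span in the young and 63 bp outside in the aged list, and the summit next to it lay 531 bp and 469 bp outside, with 65.5-fold and 34.5-fold. Inside the gene a region had 45.03-fold in the young and 30.4-fold in the aged list. That region began at 8664358 in the young and at 8664369 in the aged list. These starts lay just on either side of the 1 kb limit from the lower-numbered end, so only the young one counted there. The first region inside that end was weaker, at 6.999-fold in the young and 3.46-fold in the aged list.

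The sites around Hey1 that were found at one age were all weak. Of its 12 young regions 4 were young-only, at 2.11, 2.25, 2.64 and 3.43-fold. Those of 2.25-fold and 3.43-fold lay at the lower-numbered end, 130 bp and 518 bp outside it. Of its 11 aged regions 1 was aged-only, at 2.93-fold. A distant region 45.9 kb beyond the higher-numbered end was found in both lists, at 38.9-fold and 24.3-fold, with summits 11 bp apart. Its nearest coding gene was LOC115489673.

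Heyl, which acts beside Hey1 in muscle stem cells, had wide regions that were in several pieces in the aged list. Heyl (GeneID 56198) spans 123233556 to 123249870 of chromosome 4. In the young list one region of 8983 bp with 18 summits (123231915 to 123240897) ran over the lower-numbered end and into the gene, wider than 99.98% of the regions of the list. In the aged list 3 regions of 2513, 2827 and 1920 bp lay in the same stretch, at 33.8, 43.3 and 23.7-fold. The young region had its strongest summit 217 bp inside the end, at 56.3-fold, and the first aged region 186 bp inside. Deeper in the gene the young region reached 45.9-fold at 3334 bp and 52.6-fold at 6157 bp from the end. The 3 young summits from 1140 to 1624 bp, which no aged region covered, had 3.13 to 4.36-fold, and the one at 5208 bp, in the next such gap, had 3.30-fold.

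The higher-numbered end of Heyl also had more than 1 aged region under a young one. A young region of 4161 bp there (31.0-fold) was overlapped by 4 aged regions of 1369, 160, 894 and 333 bp, the strongest of them at 13.5-fold. On the lower-numbered side 2 strong regions lay 7.40 kb and 5.04 kb from the span, both nearer to Nt5c1a, a nucleotidase gene. They had 76.6-fold and 72.0-fold in the young and 62.3-fold and 48.1-fold in the aged list, above the region at the Heyl gene end in both. Heyl had 15 young and 22 aged regions within 50 kb, with 2 young-only and 0 aged-only. The young-only region of more than 3-fold lay in Pabpc4, a poly(A)-binding protein gene, at 3.21-fold.

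**Figure D3:**
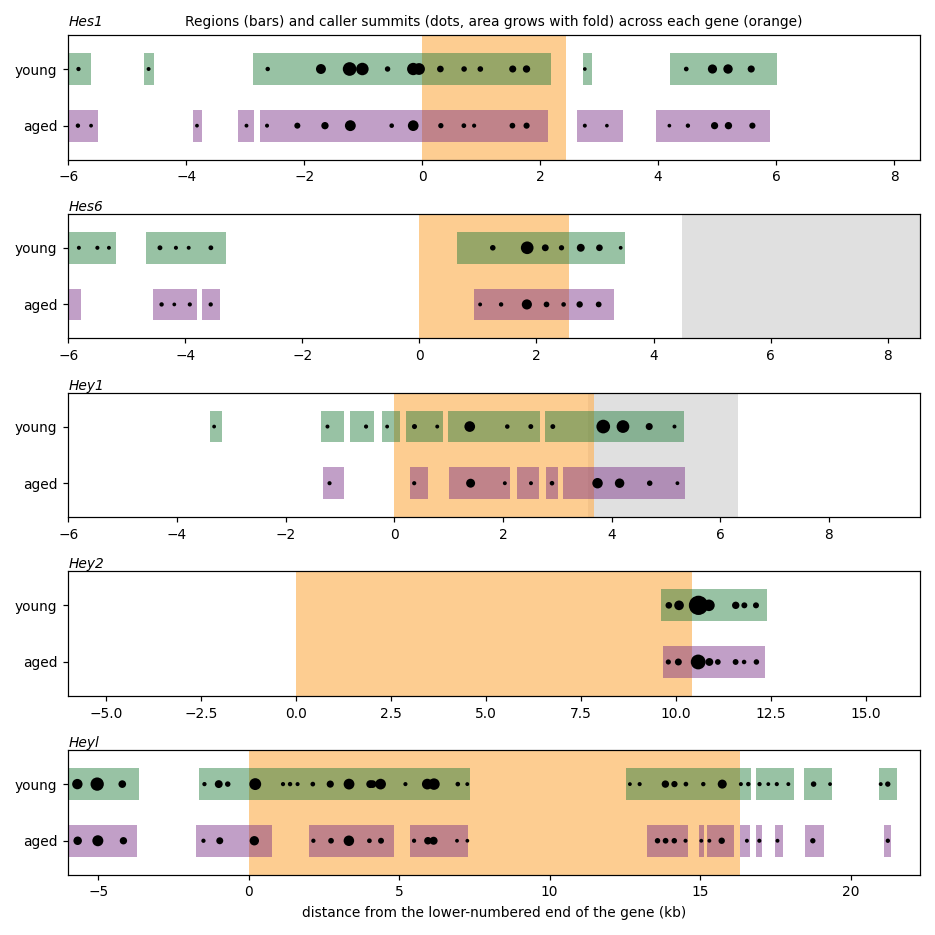
Regions (bars) and the caller's summits (dots, whose area grows with the fold) across each gene and 6 kb on either side, by distance from the lower-numbered end of the gene (kb), with the young list above the aged list. Orange marks the gene and grey other coding genes. The bar over most of Hes1 is unbroken in both lists (5054 and 4880 bp), while the young bar of 8983 bp at Heyl stands over 3 aged bars.

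Hes6 was open over the gene in both lists and lay among neighbours with their own sites. Hes6 (GeneID 55927) spans 91411483 to 91414038 of chromosome 1. Its gene-end region, which touched the window of both ends, was 2864 bp wide in the young (91412134 to 91414997) and 2393 bp in the aged list (91412415 to 91414807). It had 64.7-fold in the young and 40.1-fold in the aged list, at percentiles 95.9 and 94.4. The strongest summits were 6 bp apart, at the inner start site shown above, and the summit beyond the outer start, 202 bp outside the span in the young and 183 bp in the aged list, was lower, at 22.8-fold and 13.5-fold.

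Most of the other regions counted for Hes6 were nearer to another gene. Of its 22 young and 29 aged regions, 3 and 4 had Hes6 as the nearest coding gene. The strongest of all, at 81.9-fold in the young and 60.0-fold in the aged list, lay 45.4 kb from Hes6 next to Per2, a circadian clock gene. Another, 46.4 kb away on the other side, lay nearest to Erfe, which encodes the iron hormone erythroferrone, at 56.8-fold and 50.3-fold. The other 2 young regions with Hes6 as nearest gene lay 6.30 kb and 4.43 kb from its span, at 3.35-fold and 6.16-fold, over aged regions of at most 4.23-fold. Among the one-age regions near Hes6, 4 were young-only and 3 aged-only. The 2 young-only regions of more than 3-fold, at 3.08 and 3.96-fold, both lay in Per2.

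Regions found in a single list were weak near the 5 genes, as they were over the whole lists. Of 72 young regions, 15 (20.8%, exact Clopper-Pearson 95% interval 12.2 to 32.0) had no aged region overlapping by at least 1 bp, against 28.2% of all young regions. Of 84 aged regions, 6 (7.14%, 2.67 to 14.9) had no young overlap, against 10.7% of all aged regions. With overlap by 1 bp, both intervals contain the share of the whole list. The aged-only share turned with stricter rules of sharing: it was 47.6% (36.6 to 58.8) against 33.9% of all aged regions with a reciprocal overlap of 50%, and 40.5% (29.9 to 51.7) against 28.2% with strongest summits within 100 bp. The young-only shares under those rules, 38.9% and 30.6%, lay below those of the whole young list, which their intervals contain. The young-only regions had a median of 2.64-fold and a width of 220 bp, against 9.02-fold and 948 bp for the overlapped ones, and over the whole list the young-only medians were 2.73-fold and 220 bp. The aged-only regions had a median of 2.43-fold and 164.5 bp, against 4.23-fold and 598 bp, and over the whole list the aged-only medians were 2.40-fold and 193 bp. Of the 53 young regions of at least 3-fold, 4 were young-only, against 14.0% of all young regions of that strength. Of the 52 such aged regions 0 were aged-only, against 2.40% of all. A count of 0 allows a share of up to 5.77%, taken as 3 counts of the 52 rather than from the exact interval.

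In the top 10% of their lists were 17 young regions and 16 aged ones near the 5 genes. All of them were overlapped in the other list, as were 100% of the top 10% of both whole lists. A strongest summit of the aged list lay within 100 bp for 16 of the 17 young regions (93.7% of the top 10% of the young list), at a median distance of 12 bp, and the exception was the Hey1 gene end at 105 bp. In the other direction it was 14 of the 16 aged regions (93.1% of the top 10% of the aged list). The exceptions there were the Hey1 gene end and the aged region of 43.3-fold inside Heyl, 3112 bp from the nearest strongest summit of the young list. That aged summit lay 3329 bp from the lower-numbered end of Heyl. The young list also had a summit there, at 3334 bp and 45.9-fold, which was not the strongest of its merged region. These regions made up 23.6% of the young and 19.0% of the aged regions near the 5 genes, where 10% is the share in the list by definition.

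**Figure D4:**
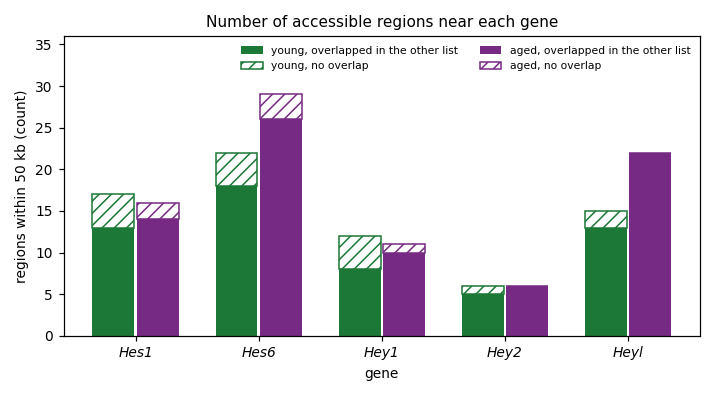
Number of regions within 50 kb of each gene (vertical axis) in the young (green) and the aged list (purple), with hatched parts for regions that had no overlap in the other list. Hes6 and Heyl have more aged than young regions (29 against 22 and 22 against 15), and the hatched parts reach at most 4 regions.

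More regions lay near the 5 genes in the aged list, although that list was the shorter one. There were 0.857 young regions per aged region near these genes, against 1.12 in the whole lists. For the length covered, young over aged was 1.22 near these genes (95.4 kb against 78.0 kb) and 1.29 in the whole lists. The excess was at Hes6 (22 young, 29 aged) and Heyl (15 and 22), while Hes1 (17 and 16), Hey1 (12 and 11) and Hey2 (6 and 6) had nearly equal numbers. Among regions of at least 3-fold there was no excess at either gene, with 17 young and 17 aged regions near Hes6 and 14 and 14 near Heyl. Of all genes, 53.4% had more young than aged regions, and 2 of these 5 had. The median gene had 9 young and 8 aged regions within 50 kb.

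Young regions overlapped by 2 or more aged regions, as at Heyl, were common near these genes, but not all of them were in pieces. The broad Hes1 region counts because an aged region of 272 bp met its edge, over 0.534% of its width. A young region of 220 bp near Hes6 counts because wider aged regions, of 1032 and 1084 bp, met its sides. Of the 72 young regions, 17 (23.6%) were overlapped by 2 or more aged regions, 8 of them near Hes6 and 5 near Heyl. Those 17 had 41 overlaps with aged regions, where an aged region lying on 2 of them counts for each. In the whole young list the share was 7.76%. Wide regions had 2 or more overlaps more often, and 40.3% of the young regions near these genes were at least 1 kb wide, against 21.7% in the list. Among regions of that width the shares were 15 of 29 (51.7%) near these genes and 27.0% in the list, a limit of width that was set after the values were seen. The count fell to 10 of 65 when rows up to 100 bp apart were joined, where the share in the list was 7.11%. Of the 33 young regions with a Hes or Hey gene as the nearest coding gene, 6 were overlapped by 2 or more aged regions. In the other direction, 3 of 84 aged regions (3.57%) were overlapped by 2 or more young regions, all 3 near Hes6, against 1.49% of the aged list. The background under the folds also differed between the lists (21.7 pileup units young, 19.8 aged), and its part in these overlaps was not tested.

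The counts behind the folds were high at the strongest gene-end region of each gene and low at the sites of a single list. The folds were whole steps of 1 pileup unit (100% of values in both lists within a tolerance of 0.01), so the pileup at a summit could be recovered. At the Hey2 promoter it was 3526 in the young and 1881 in the aged list, and at Hes1 1724 and 970. The young-only region 518 bp outside Hey1, which also lay at a gene end, had a pileup of 77, where the smallest value in the list was 39. A gene-end region found in both lists, 317 bp beyond the higher-numbered end of Hes1, had 40 in the young list. The sequencing depth of each library is unknown.

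Relatives of these genes that are mostly active in other tissues had weaker gene-end regions. Hes2, Hes3, Hes5, Hes7 and Helt encode proteins of the same class, with Hes5 acting in the nervous system and Hes7 in the segmentation clock of the embryo. All 5 were open at a gene end at both ages, as were 63.3% of all protein-coding genes. Their folds were 3.43 for Helt, 4.01 for Hes2, 5.33 for Hes3, 11.0 for Hes5 and 47.6 for Hes7 in the young list, and 2.07, 2.98, 3.75, 5.72 and 30.5 in the aged list. Each fold is that of the stronger gene end, which for Hes7 was the higher-numbered one, beyond its start site on the plus strand. The lower-numbered end of Hes7 had 14.97-fold in the young and 10.04-fold in the aged list. The lowest fold among the 5 genes described above was that of Heyl, at 56.3 and 33.8, so the 2 groups did not overlap in either list. A fold above that of Heyl was common, at 39.0% of genes with an open end in the young and 43.3% in the aged list. Among all genes with an open end the median fold was 44.1 in the young and 28.9 in the aged list. The promoter window of Hes5 was covered by a region in both lists, and those of Hes7 and Helt held no region in either. Of the 82 young regions within 50 kb of these relatives 17.1% were young-only, and of the 93 aged regions 14.0% were aged-only. Over the whole lists the shares were 28.2% and 10.7%.

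**Figure D5:**
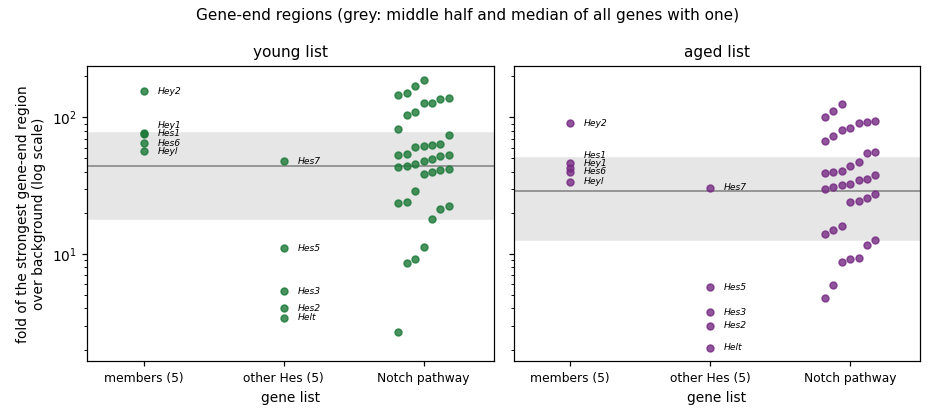
Fold over background of the strongest gene-end region (vertical axis, log scale) of the 5 genes, of 5 relatives and of the Notch pathway genes, with the young list on the left and the aged list on the right. Points are genes, the grey band is the middle 50% of all genes with an open end and the grey line their median (44.1 and 28.9). The 5 genes lie between 56.3 and 155 in the young and between 33.8 and 90.4 in the aged list, above the line in both.

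The other genes listed for the pathway were mostly open at both ages. The 39 genes listed were for receptors, ligands, the cleaving enzymes, modifiers, Rbpj, its coactivators and co-repressors, and also included Bhlhe40 and Bhlhe41. Of these genes, 38 were open at a gene end at both ages and 1 only in young cells. Over all protein-coding genes these shares were 63.3% and 3.20%. The strongest in the young list were those of the co-repressor genes Tle1 (188-fold young, 126-fold aged) and Tle4 (171 and 112), of the ligand gene Jag1 (151 and 83.5) and of Bhlhe40 (146 and 101), a stress and clock repressor of the same broad class. The exception was Rbpj, whose region at a gene end was weak in young cells, at 2.69-fold, and missing from the aged list. Among the strongest regions in equal number it was missing from both lists. Rbpj spans 53555779 to 53657445 of chromosome 5 and had 37 young and 30 aged regions within 50 kb, so start sites inside that span were not counted as ends. Of the 831 young regions near the 39 genes 27.2% were young-only, and of the 778 aged regions 11.2% were aged-only. These shares were close to the 28.2% and 10.7% of the whole lists. Top 10% regions at a gene end in both lists were found for 25 of the 39, and for 33.2% of all genes.

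The sorted identity was checked on gene ends of cell type markers, where presence of a region is not a measure of expression. All 10 muscle stem cell markers, Pax7 among them, were open in both lists, as were 63.3% of all protein-coding genes. Of the markers of other cells, open in both were 3 of 5 for differentiated muscle, 2 of 4 endothelial, 2 of 3 fibro-adipogenic, 3 of 3 smooth muscle and 2 of 3 glial. Of the immune markers, Ptprc and Cd3e had no gene-end region in either list and Cd68 had one in both. The part of other cells in the values of the Hes and Hey genes was not tested.

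For each gene the 2 coding genes with the most similar values were found over 6 quantities in the 2 lists, namely the numbers of young, aged, young-only and aged-only regions within 50 kb and the gene-end fold in each list, each as log2 of the value + 1. The nearest in Euclidean distance were Nfat5 (0.0879) and Ppfia3 (0.217) for Hes1, Plcd1 (0.247) and Wdfy1 (0.375) for Hes6, and Fam133b and Snapc2 (both 0.244) for Hey1. For Hey2 they were Mfsd8 (0.201) and Yipf5 (0.299), and for Heyl Lrp10 (0.495) and Top2a (0.50). Heyl had the least close neighbours of the 5, with 18 young and 17 aged regions for Lrp10 and 21 and 24 for Top2a against its own 15 and 22.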

How the data were processed

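For each age 1 narrowPeak list of MACS after PGE2 was used. The submitters' processing notes name Bowtie2 and the build mm10 (GRCm38). Which libraries were pooled, the options of the caller, read filters and any shift of read ends were not given in the sources used here. Per summit the authors deposited a fold (a ratio over background), a score and a −log10 q. The folds are whole steps, as 1 uniform background gives (21.7 pileup units in the young list, 19.8 in the aged list), which takes no account of local copy number. The deposited lists start at a −log10 q of 2.08 (young) and 2.16 (aged).

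Touching or overlapping rows (265507 young, 215838 aged) were merged, keeping the strongest summit by −log10 q, and regions were shared if overlapped by at least 1 bp. Spans came from the RefSeq table of GRCm38.p6 (21887 protein-coding genes), which gives no strand, and promoters from the RefSeq windows, which give it. Groups followed the sample titles. No test between ages was made. PCR fragments without molecular identifiers are not independent, so intervals cover counting error only. Scripts ran in Python 3.11.15 with pandas 2.3.3 and scipy 1.17.1, and were tested on simulated data. The members and gene lists were chosen with earlier results of these data known. Named regions were those at gene ends, the 3 strongest per gene and list and one-age regions of at least 3-fold, and pathway genes were named when open at one age or in neither or among the 4 strongest in the young list; other regions were chosen after their values were seen. A marker of another cell type is not reported here. Other overlaps, thresholds, windows, list lengths, merging and assignment were tried.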

Additional observations from a re-analysis of the deposited data

How the results depend on the processing

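The 5 Hes and Hey genes were open at a gene end in both lists, and had a region of the top 10% within 50 kb in both, under every alternative run for those results. Counts within 50 kb moved with the setting. Young and aged regions near the 5 genes numbered 38 and 45 within 25 kb, 124 and 136 within 100 kb, 33 and 38 where a member was the nearest coding gene, 37 and 38 among the strongest 58642 regions of each list, and 53 and 52 at 3-fold or more. Genes with more young than aged regions numbered 1 at a −log10 q of at least 5, at 3-fold or more, in lists of equal length and with rows within 100 bp merged, and 0 within 25 kb. The young-only share was between 15.8% and 30.6% except with reciprocal overlap of 50%, where it was 38.9% (41.2% over all regions). It lay below the share of the whole list in every setting except lists of equal length (16.2% against 15.4%). The aged-only share was 47.6% with reciprocal overlap (33.9% over all regions), 40.5% with summits within 100 bp (28.2%) and 1.92% with both lists limited to 3-fold or more (6.80%), so it lay above the whole list under the first 2 and below it otherwise. The cause was not tested; a young region in several aged pieces cannot overlap all of them by 50%. Young regions overlapped by 2 or more aged regions, an outcome added after seeing the data, numbered 16 of 69 at the stricter −log10 q, 8 of 53 at 3-fold or more, 4 of 37 in lists of equal length (4.36% over all regions), 10 of 65 with rows merged and 6 of 33 by nearest gene. Of the relatives, 2 were open in both lists at equal length. In lists of equal length Rbpj was open in neither. The Rbpj core matched at 1 place on the strand of the gene alone. Of the alternatives for summary values, 24 moved the value, by over 1.5 times for a count or outside the reported interval for a share, and 35 did not. Among values for single genes and gene-end classes, 66 were within 1.5 times the reported count and 40 were not. No paired analysis was possible because the lists hold no values of separate libraries, and no replicate could be left out for the same reason.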
